A study of Mus musculus with 16 samples.

Results

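Klrg1, Klrd1, Klri2, Klrk1 and Klrc1 encode cell-surface receptors of the killer cell lectin-like family. The genes were listed by name, and each was taken from its probe set in the deposited table that carried 1 gene symbol, with the highest mean where a gene had several. All 5 listed genes were measured, each by 1 probe set, among 22180 genes in all. The cells were ILC2s, the innate lymphoid cells of group 2, which lack antigen receptors, live in tissues and respond to the epithelial alarm cytokine IL-33. The study asked how ILC2s of mice given IL-33 through the nose differ early, later and months afterwards from those of naive mice. The 16 microarrays formed 6 groups: lung ILC2s of naive mice (n = 2), lung ILC2s 4 days (n = 3), 2 weeks (n = 3) and 4 months (n = 2) after IL-33, and ILC2s of the mediastinal lymph node, which drains the lung, at day 4 (n = 3) and week 2 (n = 3). The lung samples were labelled C57BL/6J. No strain was given for the lymph node samples, which have no naive or 4-month group, and sort markers were not given in the sources used here. Replicates were labelled as biological, and nothing said whether mice were pooled.

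These receptors have a lectin-like outer domain but mostly bind proteins, and they either restrain or activate the cell. Klrg1 encodes an inhibitory receptor that binds classical cadherins such as E-cadherin, and it is widely used as a surface marker of mature and activated ILC2s. Klrd1 encodes CD94, which reaches the surface paired with NKG2 proteins. Its inhibitory partner is NKG2A, the product of Klrc1, and the pair recognises the non-classical MHC molecule Qa-1, encoded by H2-T23. Klrk1 encodes NKG2D, an activating receptor for stress-induced MHC-like ligands that signals through the adaptors Hcst (DAP10) and Tyrobp (DAP12). Klri2 encodes a receptor that pairs with the product of Klre1. Apart from Klrg1 these receptors are best known from natural killer (NK) cells and cytotoxic T cells. In the mouse annotation GRCm38.p6 the genes Klre1, Klrd1, Klrk1, Klrc3, Klrc2, Klrc1, Klri1 and Klri2 stand next to each other in that order, whereas 133 protein-coding genes lie between Klrg1 and Klrd1.

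All values are log2 signals, so a difference of 1 is a factor of 2, and the level of one gene's probe set cannot be set against that of another. The median signal of an array lay between 3.98 and 4.27, and the number of arrays limits the precision of every mean. All 13 measured ILC2 markers of 16 listed lay above their own array's median on all 16 arrays, among them Gata3 (8.82 to 9.69) and Il7r (10.7 to 11.4). The naive and 4-month groups, with 2 arrays each, stood apart in quality: their replicates correlated at 0.937 and 0.947 across genes, against at least 0.977 in the other groups. Their signals also had a narrower spread, with interquartile ranges of 2.39 and 2.45 (naive) and of 2.05 and 2.47 (4 months) against 2.85 to 3.07 elsewhere. The mean of 10 T cell markers was 6.39 to 6.57 on the naive arrays and 4.83 to 5.13 on the other 14. The mean of 12 macrophage markers ran from 4.16 to 5.94 over the 10 lung arrays and from 3.66 to 3.97 over the 6 lymph node arrays. Differences were tested with limma across all genes and are given ± the moderated standard error, and a gene is said to have risen or fallen only at a Benjamini-Hochberg adjusted p under 0.05.

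Klrg1 was higher in lymph node ILC2s than in lung ILC2s and, within the lung, was highest at day 4. On the naive lung arrays Klrg1 read 7.85 and 8.70. It read 9.04, 9.30 and 9.08 in lung at day 4, 8.56, 8.64 and 8.15 at week 2, and 7.68 and 8.18 at 4 months. In the lymph node Klrg1 read 9.57, 9.74 and 9.64 at day 4 and 9.38, 9.46 and 9.45 at week 2. The order of group means was therefore 4 months lung, naive lung, week 2 lung, day 4 lung, week 2 lymph node and day 4 lymph node. The 3 lowest groups overlapped as neighbours, and each of the 3 highest was separated from the group below it. All 6 lymph node arrays (at least 9.38) lay above all 10 lung arrays (at most 9.30), which 111 of the 22180 genes, or 0.500%, did. Within the lymph node the week 2 readings lay below all day 4 readings, as for 8.51% of all genes. In bulk samples such as these, fewer expressing cells and less RNA per cell cannot be told apart.

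**Figure D1:**
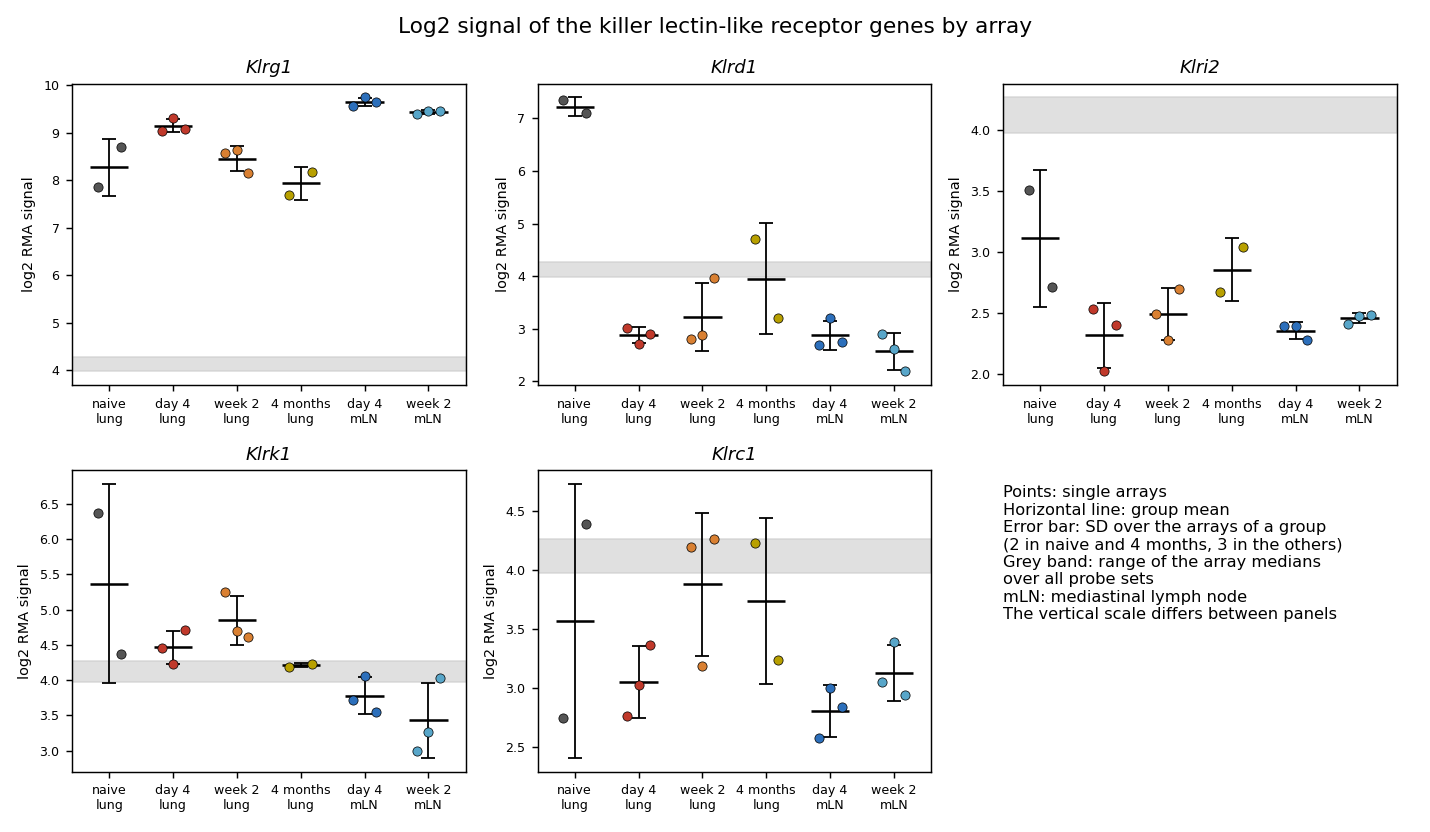
Log2 signal of Klrg1, Klrd1, Klri2, Klrk1 and Klrc1 on each of the 16 arrays, 1 panel per gene, with the 6 groups on the horizontal axis; points are arrays, lines are group means with the SD, and the grey band is the range of array medians. The naive arrays read 7.10 and 7.35 in Klrd1 and the other 14 at most 4.70, and Klrg1 was higher on all 6 lymph node arrays than on any lung array.

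Klrg1 rose from naive to day 4 in the lung by 0.87 ± 0.24, a 1.82-fold difference (95% interval 0.37 to 1.37, limma adjusted p = 0.0192). The day 4 arrays all lay above the naive ones, as for 22.0% of all genes, and the naive replicates lay far apart. Without naive replicate 1 the difference was 0.44 (limma adjusted p = 0.25), and without day 4 lung replicate 2 it was 0.79 (adjusted p = 0.0656). Replicates 1 and 2 of day 4 lung and replicate 3 of week 2 lung had the highest macrophage marker means of all 16 arrays (5.91, 5.94 and 5.50) and are called macrophage-high here. With these left out, which kept 1 day 4 lung array and was chosen after seeing the data, the Klrg1 difference was 0.81 and the call was lost (limma adjusted p = 0.216). Klrg1 differed from naive by 0.18 ± 0.24 at week 2 (adjusted p = 0.678) and by -0.34 ± 0.26 at 4 months (adjusted p = 0.543, limma), and neither passed the test. From day 4 to week 2 in the lung the Klrg1 difference was -0.69 ± 0.21 (95% interval -1.14 to -0.25). It missed the threshold in the fit of all groups (limma adjusted p = 0.137) although the 2 groups did not overlap, as for 11.9% of all genes in that direction. It passed with the naive and 4-month arrays left out of the fit (adjusted p = 0.0228) and with arrays weighted by their quality (adjusted p = 0.0111). From week 2 to 4 months the Klrg1 difference was -0.52 ± 0.24 (limma adjusted p = 0.136). These comparisons share the naive, day 4 or week 2 arrays and are not independent of each other.

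Between tissues, Klrg1 was 0.98 ± 0.21 higher in lymph node than in lung at week 2, a 1.97-fold difference (95% interval 0.53 to 1.42, limma adjusted p = 0.0359). It was the only 1 of the 5 receptor genes called there, against 0.780% of all genes in either direction and 0.334% in that direction. The call was lost whichever single array of the 2 groups was left out, with adjusted p from 0.0702 to 0.203, while the arrays of the 2 groups lay wholly apart, as for 9.97% of all genes in that direction. At day 4 the Klrg1 difference was 0.51 ± 0.21 (95% interval 0.06 to 0.95) and did not pass (limma adjusted p = 0.356), although the groups lay apart, as for 9.57% of all genes. The change in the Klrg1 tissue difference from day 4 to week 2, tested as an interaction, was 0.47 ± 0.30 (95% interval -0.16 to 1.10, adjusted p = 0.904). Averaged over both times, a comparison added after seeing the data, Klrg1 was 0.74 ± 0.15 higher in the lymph node (limma adjusted p = 0.00776), against 3.16% of all genes called and 1.36% called higher. That call held in 21 of 22 alternatives and was lost when the macrophage-high arrays were left out, where the Klrg1 difference was 0.70 (adjusted p = 0.125) and day 4 lung kept 1 array. Within the lymph node Klrg1 differed by -0.22 ± 0.21 from day 4 to week 2 (adjusted p = 0.912).

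Klrd1, the CD94 gene, separated naive lung ILC2s from every other group. On the 2 naive arrays Klrd1 read 7.35 and 7.10. After IL-33 it read 3.01, 2.72 and 2.90 in lung at day 4, 2.81, 2.88 and 3.97 at week 2, and 4.70 and 3.21 at 4 months. In the lymph node Klrd1 read 2.68, 3.20 and 2.75 at day 4 and 2.90, 2.61 and 2.19 at week 2. The lowest naive array stood above the highest of the other 14 arrays, and neighbours among the other 5 groups overlapped. The share of all genes with both naive arrays above the other 14 was not computed. In pairs of lung groups, arrays lying wholly below naive were common at day 4 (22.5% of all genes), week 2 (20.6%) and 4 months (18.6%). On 13 of the 16 arrays Klrd1 lay below the array's median signal, the exceptions being the naive arrays and 4-month replicate 1.

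Klrd1 fell from naive by 4.35 ± 0.38 at day 4 (95% interval -5.15 to -3.54, limma adjusted p = 3.66e-06). It fell from naive by 4.00 ± 0.38 at week 2 (adjusted p = 2.46e-05), and by 3.27 ± 0.42 at 4 months (limma adjusted p = 0.00118). No linear fold is given, since most readings after IL-33 lay below the array median, where signal over background could not be assessed. The Klrd1 calls at day 4 and week 2 held in 14 of 14 alternatives each. The call at 4 months held in 10 of 12 and was lost when only the naive and 4-month arrays were fitted (adjusted p = 0.394) and with array weights (adjusted p = 0.108). From week 2 to 4 months Klrd1 differed by 0.73 ± 0.38 (limma adjusted p = 0.19). Without 4-month replicate 2 that difference was 1.48 (adjusted p = 0.0131), so it rested on which 4-month array was used. Klrd1 differed by 0.35 ± 0.34 between day 4 and week 2 in the lung (adjusted p = 0.789), by -0.65 ± 0.34 between lymph node and lung at week 2 (adjusted p = 0.585) and by -0.31 between the 2 lymph node times (limma adjusted p = 0.931).

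T cell genes were high on the same 2 arrays as Klrd1. Of the 10 T cell markers, 7 fell from naive at day 4, 6 at week 2 and 5 at 4 months, and 0 rose. Over all genes 5.73%, 2.87% and 1.25% fell in these 3 comparisons. The T cell receptor complex gene Cd3d read 8.09 and 8.32 on the naive arrays and 3.02 to 5.59 on the others, and Cd3e read 8.99 and 9.37 against 5.30 to 6.81. The CD8 chain gene Cd8b1 read 6.51 and 6.88 on the naive arrays and 3.20 to 4.07 on the others, whereas Cd3g (8.33 and 9.05 against 7.10 to 9.18) overlapped. Of 20 measured NK and cytotoxic markers of 21 listed, 4 fell and 2 rose at day 4, when 5.73% of all genes fell and 10.8% rose. Ctsw, a cathepsin gene, was among those that rose, from a mean of 7.60 on the naive arrays to 9.66 at day 4. Those that fell were Gzma, a cytotoxic granule enzyme (-1.42 ± 0.35, adjusted p = 0.0113), Ifng, the interferon gamma gene (-1.36 ± 0.21, adjusted p = 0.000389), Eomes, a transcription factor gene of NK cells (-0.94 ± 0.26, adjusted p = 0.0228), and Txk, a kinase gene (-0.85 ± 0.21, limma adjusted p = 0.0099). At week 2, 4 of these 20 markers fell from naive and 2 rose. Over all genes 2.87% fell there and 9.62% were called in either direction. At 4 months 4 of the 20 fell and 0 rose, when 1.25% of all genes fell and 1.97% were called in either direction. The mean of the list was 4.94 to 5.05 on the naive arrays and 4.56 to 4.92 on the others. The NK receptor gene Ncr1 (3.08 to 4.20) lay below the array median on 16 of 16 arrays and Eomes (2.68 to 4.32) on 14 of 16. The part of other cells in the Klrd1 difference was not tested.

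**Figure D2:**
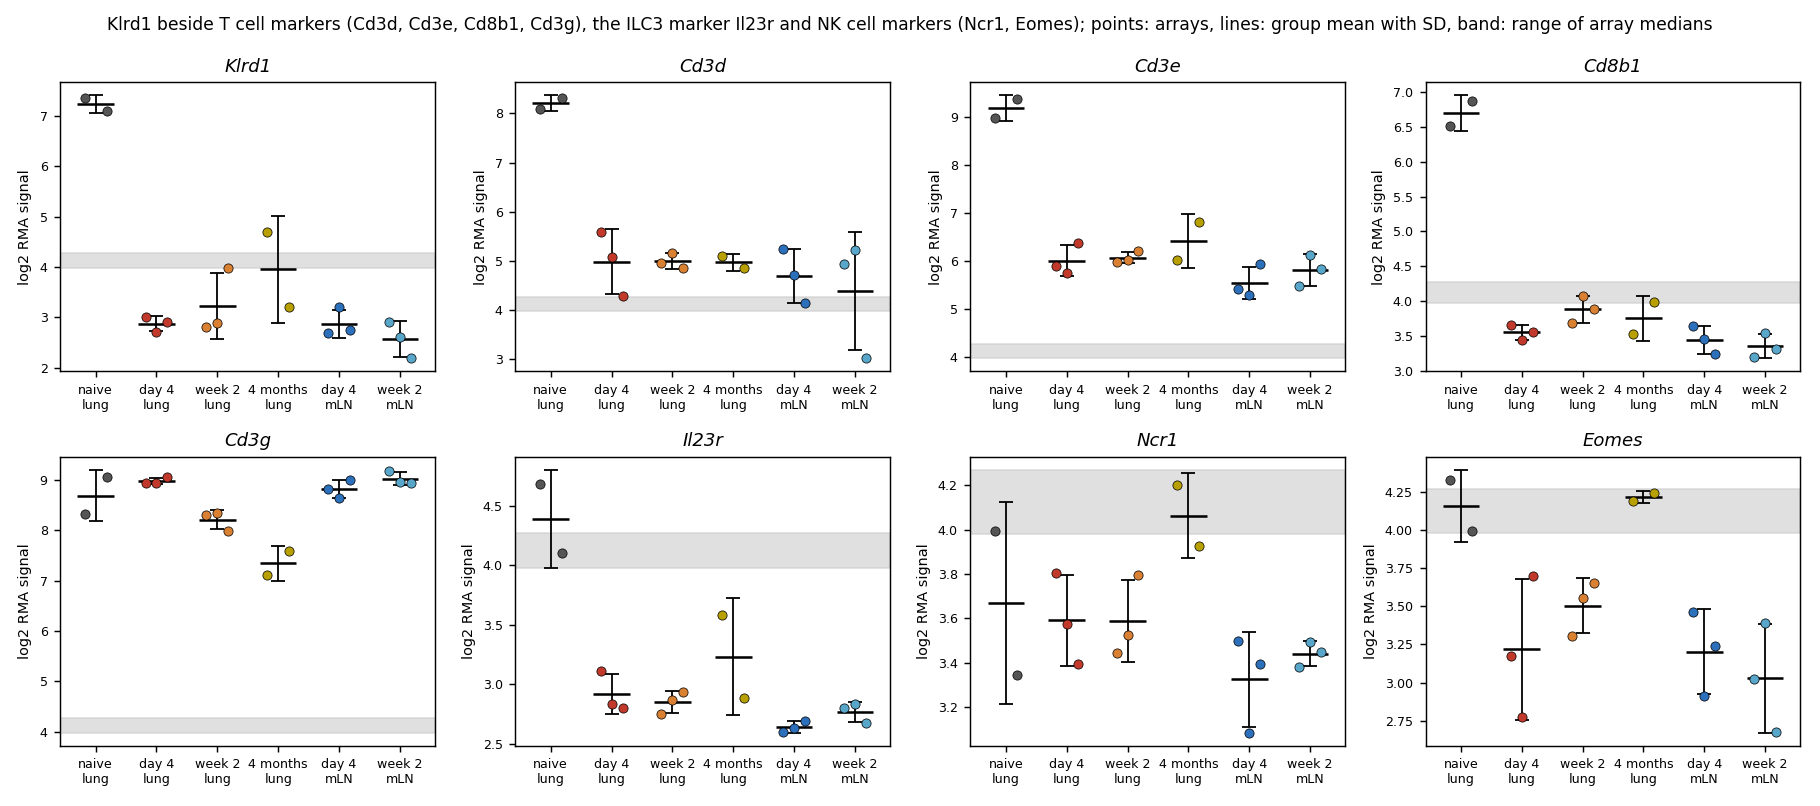
Log2 signal by group of Klrd1, the T cell genes Cd3d, Cd3e, Cd8b1 and Cd3g, the IL-23 receptor gene Il23r and the NK cell genes Ncr1 and Eomes; points are arrays, lines are group means with the SD, and the grey band is the range of array medians. The naive arrays stood above all others in Klrd1 (7.10 and 7.35), Cd3d (8.09 and 8.32), Cd3e (8.99 and 9.37), Cd8b1 (6.51 and 6.88) and Il23r (4.68 and 4.10), and overlapped with other groups in Cd3g and Ncr1.

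Klrc1, whose product NKG2A pairs with CD94, showed no such split. Klrc1 read 2.74 and 4.39 on the naive arrays, and the second of these was the highest of all 16 arrays. It read 2.76, 3.02 and 3.37 in lung at day 4, 4.20, 3.18 and 4.26 at week 2, and 4.23 and 3.24 at 4 months. Lymph node arrays gave Klrc1 readings of 2.57, 3.00 and 2.84 at day 4 and 3.05, 3.39 and 2.93 at week 2. It lay below the array median on 13 of 16 arrays, and every neighbouring pair of groups overlapped. No Klrc1 difference passed in the 9 planned comparisons. The difference from naive at day 4 was -0.52 ± 0.41, with an interval from -1.39 to 0.36 that spans both directions (limma adjusted p = 0.415). Klrc1 passed there when naive replicate 1 was left out (-1.34, adjusted p = 0.0388). The Klrc1 difference from day 4 to week 2 in the lung was 0.83 ± 0.37 (95% interval 0.05 to 1.62, limma adjusted p = 0.383).

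H2-T23, the gene of the CD94 and NKG2A ligand Qa-1, read highest at day 4 within the lung. H2-T23 read 6.09 and 6.08 on the naive arrays, 7.04, 6.88 and 6.98 at day 4, 5.96, 5.94 and 6.13 at week 2, and 5.17 and 6.19 at 4 months. It rose by 0.88 ± 0.26 at day 4 (limma adjusted p = 0.028) and fell by 0.96 ± 0.23 from day 4 to week 2 (limma adjusted p = 0.0421). The day 4 lung arrays lay wholly above naive, as for 22.0% of all genes. The week 2 lung arrays lay wholly below day 4, as for 11.9% of all genes. The rise held in 6 of 14 alternatives and the fall in 8 of 16. Both calls were lost whichever single array of the groups compared was left out. The rise was then 0.84 to 0.92, and the fall had limma adjusted p from 0.0886 to 0.176. In the lymph node H2-T23 read 7.08, 7.13 and 6.53 at day 4 and 6.67, 6.64 and 6.24 at week 2, which did not differ by the test (limma adjusted p at least 0.368 in all alternatives).

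Klrk1, the NKG2D gene, read lower on the lymph node arrays than on the lung arrays, although neither planned tissue comparison passed. In the lung Klrk1 read 6.37 and 4.37 on the naive arrays, 4.46, 4.23 and 4.70 at day 4, 5.25, 4.69 and 4.61 at week 2, and 4.19 and 4.23 at 4 months. In the lymph node it read 3.72, 4.06 and 3.55 at day 4 and 2.99, 3.27 and 4.02 at week 2. All 6 lymph node arrays (at most 4.06) lay below all 10 lung arrays (at least 4.19), the opposite order to Klrg1, and 57 of the 22180 genes, or 0.257%, were ordered in that way. Klrk1 lay below the array median on 5 of 16 arrays, among them 2 of 3 lymph node arrays at each time.

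At week 2 the difference of Klrk1, lymph node minus lung, was -1.42 ± 0.37 (95% interval -2.21 to -0.63), which missed the threshold in the fit of all groups (limma adjusted p = 0.109). The arrays lay apart, as for 9.95% of all genes in that direction. The difference passed when only the groups compared were fitted (adjusted p = 0.0402), without the naive and 4-month arrays (adjusted p = 0.00951) and with array weights (adjusted p = 0.00291). At day 4 the Klrk1 difference was -0.68 ± 0.37 (95% interval -1.48 to 0.11, limma adjusted p = 0.605), with the groups apart as for 8.98% of all genes. The interaction was -0.74 ± 0.53 for Klrk1 (adjusted p = 0.937). Averaged over both times, the comparison added after seeing the data, the Klrk1 difference was -1.05 ± 0.26 (limma adjusted p = 0.0371, against 1.80% of all genes called lower), a call that held in 9 of 22 alternatives. Against naive, the Klrk1 differences were -0.91 ± 0.42 at day 4 (adjusted p = 0.149), -0.52 ± 0.42 at week 2 (adjusted p = 0.46) and -1.16 ± 0.46 at 4 months (limma adjusted p = 0.205). All 3 turned on the naive arrays, of which replicate 1 was the highest of all 16. Without naive replicate 2 they were -1.90, -1.52 and -2.15 and all passed (limma adjusted p = 0.00207, 0.0129 and 0.00756).

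Of the NKG2D adaptors, Hcst read 10.05 to 10.97 on all 16 arrays and passed in none of the planned comparisons. Tyrobp, an adaptor that myeloid cells also carry, read 9.35 and 5.05 on the naive arrays, 9.16, 8.86 and 5.96 in lung at day 4, 6.53, 6.01 and 8.52 at week 2, and 8.62 and 8.20 at 4 months. On the 6 lymph node arrays Tyrobp read 4.94 to 5.52. The lung arrays high in Tyrobp in the first 3 groups, naive replicate 1, day 4 replicates 1 and 2 and week 2 replicate 3, were those with the higher macrophage marker means of their groups (5.04, 5.91, 5.94 and 5.50). The 4-month arrays, also high in Tyrobp, had macrophage means of 4.99 and 4.50. The tissue difference of Tyrobp at day 4 was -2.75 ± 0.89 and did not pass (limma adjusted p = 0.164). Fcer1g, the Fc receptor gamma chain gene, had the same high lung arrays (naive 7.64 and 5.25) and fell from lung to lymph node at day 4 by 3.20 ± 0.69 (limma adjusted p = 0.0165). The part of macrophage RNA in these values was not tested.

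Klri2 lay below the array median on all 16 arrays. Klri2 read 3.51 and 2.71 on the naive arrays, 2.53, 2.02 and 2.40 in lung at day 4, 2.49, 2.27 and 2.70 at week 2, and 2.67 and 3.04 at 4 months. Klri2 lay between 2.27 and 2.48 on all 6 lymph node arrays. It fell by 0.80 ± 0.23 from naive to day 4 (95% interval -1.28 to -0.31, limma adjusted p = 0.0266), with the 2 groups apart, as for 22.5% of all genes in that direction. The call held in 6 of 13 alternatives and rested on naive replicate 1. Without that array the Klri2 difference was -0.40 (adjusted p = 0.307), without day 4 lung replicate 2 it was -0.65 (adjusted p = 0.1), and without the macrophage-high arrays it was -0.71 (limma adjusted p = 0.256). At week 2 the Klri2 difference from naive was -0.62 ± 0.23 (adjusted p = 0.0983), and without naive replicate 2 it was -1.02 and passed (limma adjusted p = 0.0152). Klre1, its partner gene, fell from naive to day 4 by 0.80 ± 0.19 (limma adjusted p = 0.0104). Klre1 read 3.78 to 4.09 on the naive arrays, 3.02 to 3.25 in lung at day 4 and 3.73 to 4.00 at 4 months. It lay below the array median on 15 of 16 arrays, and its call at day 4 held in 10 of 14 alternatives.

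Counted together, 1 of the 5 receptor genes rose (Klrg1) and 2 fell (Klrd1 and Klri2) from naive to day 4, when 16.6% of all genes were called, 10.8% higher and 5.73% lower. Their median difference was -0.80, against -0.06 over all genes. At week 2 and at 4 months only Klrd1 passed against naive, when 9.62% and 1.97% of all genes were called, 2.87% and 1.25% as lower than naive. None of the 5 passed between day 4 and week 2 in the lung (1.81% of all genes called), between week 2 and 4 months (16.4%), between the lymph node times (1.71%), between tissues at day 4 (2.33%) or in the interaction (0.180%).

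**Figure D3:**
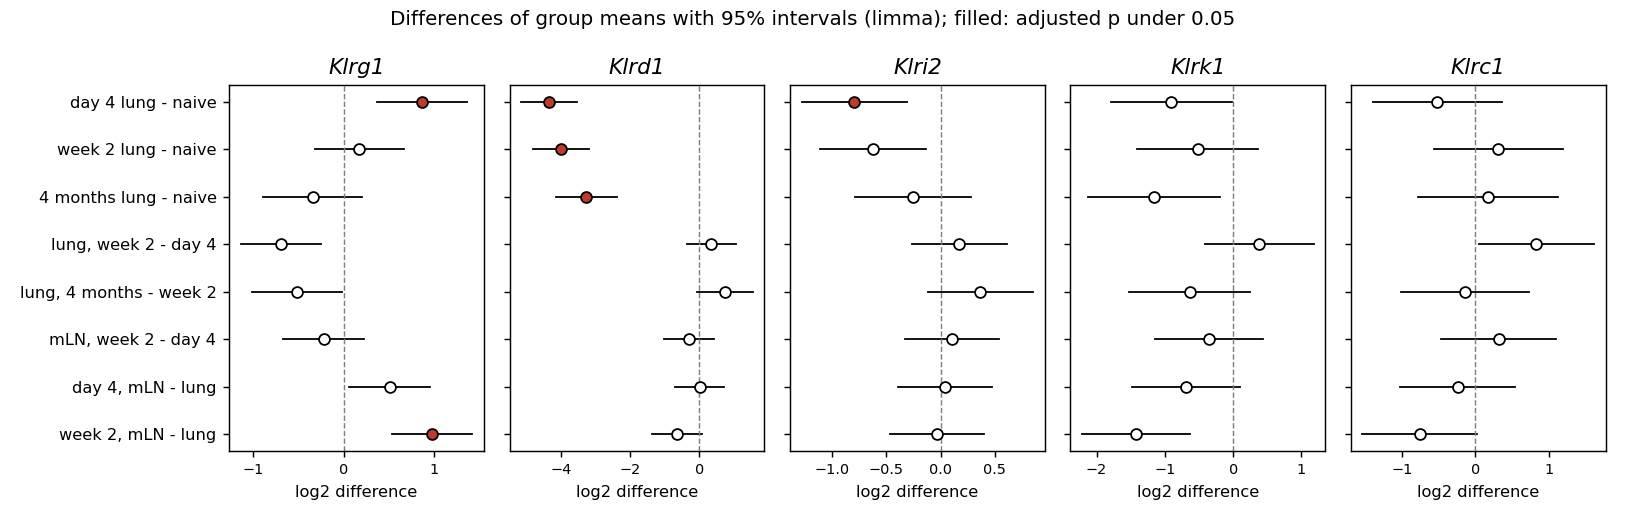
Log2 differences of group means of the 5 receptor genes in 8 comparisons of 2 groups each, with 95% intervals from limma; filled points passed an adjusted p under 0.05. Klrd1 differed from naive by -4.35, -4.00 and -3.27 at the 3 times, and the tissue differences of Klrg1 (0.98) and Klrk1 (-1.42) at week 2 lay on opposite sides of 0.

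Klrg1's ligands are themselves genes that these cells could express, and 3 cadherin genes were measured. Cdh1, the E-cadherin gene, read 4.51 and 5.33 on the naive arrays, 6.25, 6.68 and 5.42 in lung at day 4, 5.85, 5.76 and 6.21 at week 2, and 6.06 and 6.02 at 4 months. In the lymph node Cdh1 read 5.02, 4.65 and 4.77 at day 4 and 5.26, 5.37 and 5.16 at week 2. Cdh1 rose from naive by 1.20 ± 0.30 at day 4 (limma adjusted p = 0.0126) and by 1.02 ± 0.30 at week 2 (limma adjusted p = 0.0422), and its difference between lymph node and lung at day 4 was -1.30 ± 0.27 (limma adjusted p = 0.0129). In that order, the Cdh1 calls held in 10 of 14, 6 of 14 and 11 of 16 alternatives. The mean of Cdh1 was highest in day 4 lung (6.12) and lowest in day 4 lymph node (4.81), the groups where Klrg1 was highest within each tissue. Without the macrophage-high arrays the day 4 differences of Cdh1 were 0.50 from naive (adjusted p = 0.442) and -0.60 between tissues (limma adjusted p = 0.683). Cdh4, the R-cadherin gene, fell from naive to day 4 by 1.38 ± 0.40 (limma adjusted p = 0.0265), and Cdh2, the N-cadherin gene, differed by -1.09 ± 0.21 between lymph node and lung at week 2 (limma adjusted p = 0.0162). Over the 7 measured ligand genes of 13 listed, 2 rose and 1 fell from naive to day 4, when 10.8% of all genes rose and 5.73% fell.

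Among 15 measured lectin-like receptor genes other than the 5, of 22 listed, 1 rose and 2 fell from naive to day 4, when 10.8% of all genes rose and 5.73% fell. Klrb1b, the gene of an inhibitory NKR-P1 receptor, rose by 1.55 ± 0.45 (limma adjusted p = 0.0261), Klrc2, which encodes the activating CD94 partner NKG2C, fell by 1.47 ± 0.32 (limma adjusted p = 0.00549), and Klre1 fell as given above. Klrc2 also fell from naive to week 2 by 1.08 ± 0.32 (limma adjusted p = 0.0438). From week 2 to 4 months 4 of the 15 rose and 0 fell, with a median difference of 0.48 against 0.02 over all genes, when 4.85% of all genes rose. These were Klra9, a Ly49 receptor gene (2.29 ± 0.66), Klrc2 (1.29), Klrb1c, the NK1.1 gene (0.96), and Klrh1 (0.71), with limma adjusted p from 0.0144 to 0.0378. These are dim probe sets: Klrc2 and Klrh1 lay below the array median on 16 of 16 arrays, and Klra9 and Klrb1c on 15 of 16. The 4-month arrays also had the highest median of all arrays (4.27, replicate 1) and narrower ranges, and the part of these in the rises was not tested. The Klra9 reading rested on unlike 4-month replicates of 5.15 and 3.08. Klrc2 read 2.44 and 3.45 on the naive arrays, 3.10 and 3.21 at 4 months and 1.05 to 2.50 on the other arrays. Between tissues 1 passed: Klrb1b differed by -2.07 ± 0.40 between lymph node and lung at day 4 (limma adjusted p = 0.0078). Genes of the Ly49 and NKR-P1 families are near copies of each other, so their probe sets may read more than 1 gene.

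Downstream of the receptors, 17 of 19 listed adaptor and signalling genes were measured. From naive to day 4, 2 rose and 0 fell, when 10.8% of all genes rose and 5.73% fell. The 2 that rose were Zap70, a kinase gene (1.33 ± 0.31, limma adjusted p = 0.00757), and Plcg2, a phospholipase gene (1.15 ± 0.22, limma adjusted p = 0.00203). From week 2 to 4 months 0 rose and 5 fell, with a median difference of -0.43 against 0.02 over all genes, when 11.5% of all genes fell. Among these were the genes of the phosphatases that inhibitory receptors recruit, Ptpn11 (SHP-2, -1.31, limma adjusted p = 0.000946) and Ptpn6 (SHP-1, -1.14, limma adjusted p = 0.00107). The others were Zap70 (-1.13), Plcg1 (-0.88) and Vav1 (-0.69). Ptpn6 also fell by 1.17 ± 0.19 from naive to 4 months (limma adjusted p = 0.00597), the only 1 of the 17 called there. The part of the narrower signal range of the 4-month arrays in these falls was not tested.

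**Figure D4:**
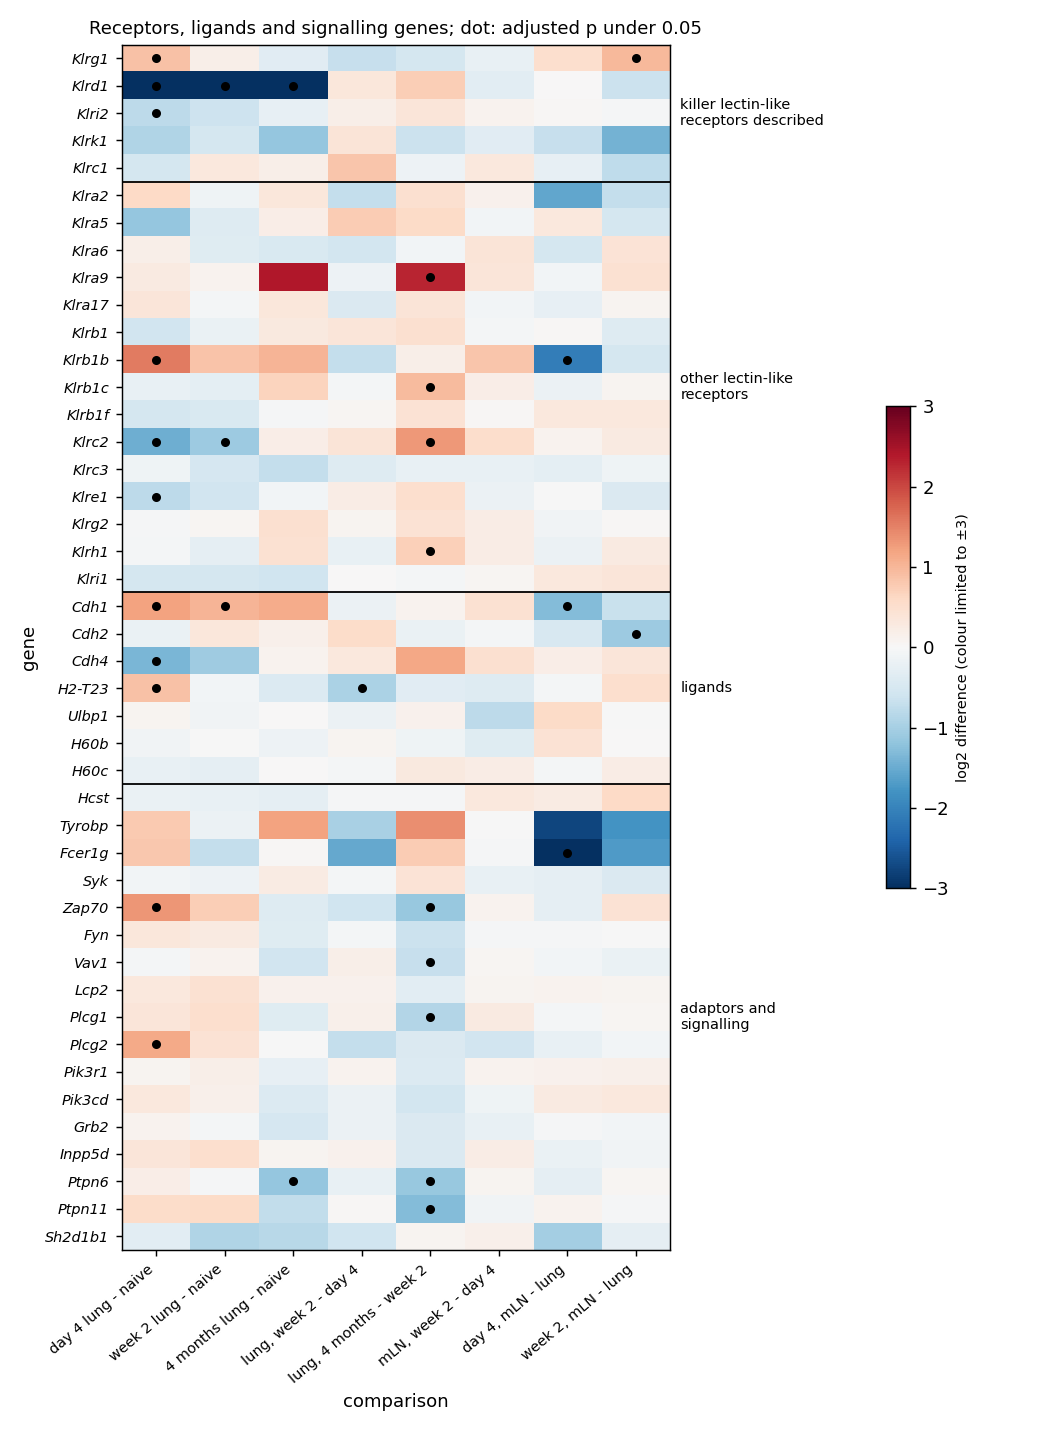
Log2 differences of the 5 receptor genes and of the other lectin-like receptor, ligand, and adaptor and signalling genes (vertical axis) in 8 comparisons of 2 groups each (horizontal axis), as a colour scale limited to 3 either way; dots mark an adjusted p under 0.05. From week 2 to 4 months 4 of 15 receptor genes rose and 5 of 17 adaptor and signalling genes fell.

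The genes whose pattern over the 16 arrays was most like each receptor gene differed from one receptor to the next. For Klrg1 these were the mitochondrial ribosome genes Mrpl18 and Mrpl49 and the interferon-induced GTPase gene Igtp, with Pearson r of 0.951, 0.943 and 0.938. For Klrd1 they were the IL-23 receptor gene Il23r (0.958), Gramd3 (0.936) and Prrt4 (0.927), and Il23r read 4.68 and 4.10 on the naive arrays and 2.60 to 3.58 on the others. For Klri2 they were the CD8 gene Cd8a (0.916), an immunoglobulin kappa variable gene (0.878) and Lrrc38 (0.876). For Klrk1 they were Marcksl1 (0.845), Mycs (0.819) and Nectin1 (0.813), and for Klrc1 Olfr1372-ps1 (0.883), Serpina6 (0.821) and the interleukin gene Il10 (0.817). These correlations describe 16 arrays that share the same 6 groups, and they were picked as the highest of all genes.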

How the data were processed

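The 16 one-colour Affymetrix arrays were summarised by the authors as log2 signals per probe set with Expression Console and RMA (background correction, quantile normalization, probe summary), per the submitters' processing notes; the sources used here name no tool version or genome build. Per the labels' protocols, Trizol was used for RNA and a Nugen Encore biotin kit for labelling. Of 41345 probe sets, 23521 carried 1 gene symbol, 1814 several and 16010 none; genes were named only from the first, which gave 22180 genes, 21994 of them matched to the reference gene table by Entrez identifier. For the 1082 genes with several probe sets the one with the highest mean was used.

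Group means were fitted over all 16 arrays with limma 3.58.1 in R 4.3.3, with 10 residual and 6.52 prior degrees of freedom, no trend or robust option, no filter and no replicate block, and were tested two-sided in 9 planned comparisons. The procedure was tested on simulated data. Nothing in the labels said that a replicate number marks a shared animal, day or batch, so the numbers were not used as a block. Genes named from each list were the direct partners of the receptors and up to 4 called genes per comparison with the largest difference, and the 3 genes most like each receptor gene, predicted genes left out; the marker genes named and further called genes were singled out after their values were seen. The 5 genes and all lists were chosen with earlier results of these data known. Some genes of the marker lists are not reported here. Figures were drawn with matplotlib 3.10.9.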

Additional observations from a re-analysis of the deposited data

How the results depend on the processing

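Over 795 alternative values of the 5 receptor genes, 710 kept direction and call, 36 lost the call, 11 gained it, 38 changed sign without being called in the all-array fit, and 0 called values changed sign. Of the 5 genes, 3 were called from naive to day 4, and 1 with quantile normalization repeated, array weights, groups compared only or the macrophage-high arrays left out. At 4 months against naive the 1 call became 0 with array weights or groups compared only. Between day 4 and week 2 in lung, 0 became 1 with array weights or without the naive and 4-month arrays. Between tissues at week 2, 1 became 2 with those settings or groups compared only, and 0 without the macrophage-high arrays. For the tissue average, 2 became 1 after quantile normalization and 0 without the macrophage-high arrays. Leaving out 1 array at a time gave 1 to 4 of the 5 genes at day 4, 1 to 3 at week 2 and 1 to 2 at 4 months against naive, 0 to 1 from week 2 to 4 months, 1 to 2 for the tissue average and 0 to 0 in the other comparisons. A lone array left in a group was assumed to vary like the others.

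Counts over all genes moved more. In the order day 4, week 2 and 4 months against naive, week 2 against day 4 lung, 4 months against week 2, week 2 against day 4 lymph node, tissues at day 4, tissues at week 2, interaction and tissue average, 3677, 2134, 436, 401, 3633, 379, 517, 173, 40 and 701 genes were called. With array weights these were 1627, 728, 4, 1409, 1196, 629, 939, 692, 205 and 1494. With groups compared only, 1380, 525 and 0 passed against naive, 1721 for 4 months against week 2, 310 for tissues at week 2, 102 for the interaction and 1140 for the average. After quantile normalization 1158 passed at week 2 and 783 at 4 months against naive, and 1421 for 4 months against week 2. Without the macrophage-high arrays 688 and 683 passed at day 4 and week 2 against naive, 46 for week 2 against day 4 lung, 1073 for 4 months against week 2, 201 and 74 for tissues at day 4 and week 2, 13 for the interaction and 323 for the average. Without the naive and 4-month arrays 689 passed for week 2 against day 4 lung, 792 and 342 for tissues at day 4 and week 2, 102 for the interaction and 1140 for the average. Leaving out 1 array gave, in the first order, 2274 to 3308, 1084 to 2274, 303 to 1412, 182 to 460, 793 to 5588, 247 to 380, 254 to 449, 88 to 146, 11 to 52 and 495 to 640. The highest count from week 2 to 4 months came without 4-month replicate 2. The cause of these moves was not tested.

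To see whether replicate numbers paired the arrays, each gene's group mean was subtracted and what remained was correlated between arrays of different groups. Same-numbered arrays then correlated at -0.104 to 0.184 (median 0.0283 over 36 pairs, against a median of -0.0163 for unlike numbers). For 10 of 16 arrays the best such correlation was with an array of their own number. With the replicate block, 3562 genes passed at day 4 against naive, Klrg1 differed there by 0.91 (limma adjusted p = 0.00952) and Klrd1 by -4.38 (adjusted p = 1.86e-05). The block left the number of the 5 genes called the same in every comparison. Klri2 fell to a filter on dim genes and has no value there. Without scanner files, signal over background could not be reassessed, which limits Klri2, Klrc1 and Klrd1 on most arrays and Klrk1 on most lymph node arrays.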

Other observations

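A group of 3 genes of the NK and cytotoxic list differed between tissues in the direction of Klrg1, and they were singled out after their values were seen. In the tissue average, 3 of the 20 measured genes of this list passed as higher in lymph node and 0 as lower. Over all genes 1.36% passed as higher and 1.80% as lower. The median difference of the list was -0.15, against 0.003 over all genes. Txk, a kinase gene of T and NK cells, read 5.92 to 6.29 in lymph node at day 4 and 6.34 to 6.59 at week 2, against 5.20 to 5.52 and 4.49 to 4.98 in lung. The Txk differences were 0.76 ± 0.18 and 1.66 ± 0.18 (limma adjusted p = 0.0346 and 0.00018). Txk also read 5.99 and 6.45 on the naive lung arrays and 4.38 and 4.57 at 4 months, below naive by the test at all 3 times. Itga2, the integrin alpha 2 gene, was 1.60 ± 0.25 higher in lymph node at day 4 (limma adjusted p = 0.00124), with readings of 7.11, 6.98 and 7.26 against 5.48, 5.51 and 5.55. At week 2 Itga2 read 6.06 to 6.30 in lymph node and 5.79 to 6.02 in lung, a difference that did not pass. Ccl5, a chemokine gene, was 1.33 ± 0.20 higher in lymph node at week 2 (limma adjusted p = 0.00206) and fell in lung by 1.68 ± 0.20 from day 4 to week 2 (limma adjusted p = 0.000178). At day 4 Ccl5 read 10.07 to 10.74 in lymph node and 9.81 to 10.22 in lung, and the tissue difference did not pass. Ctsw, a cathepsin gene of cytotoxic cells, went the other way at day 4, with a difference of -1.35 ± 0.26 (limma adjusted p = 0.00887), and had risen in lung from naive to day 4 by 2.06 ± 0.30 (limma adjusted p = 0.000256).

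Outside the genes reported above, 4 probe sets carried several symbols of the same receptor family. They read between 1.00 and 3.32 on all 16 arrays and were given to no gene.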
